A study of Mus musculus with 2 samples.

Results

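The 10 myosin light chain genes Mylpf, Myl1, Myl2, Myl3, Myl4, Myl7, Myl6, Myl6b, Myl9 and Myl12b were examined in the esophagus of E18.5 mouse embryos. They were taken as all probe sets of the deposited table whose only gene symbol in the platform annotation is 1 of these names, which gave 14 probe sets for 10 of the 18193 genes named on the array. One array was hybridized with RNA of wild-type esophagus from BALB/c mice. The other was hybridized with RNA of esophagus labelled Myf5-/-:MyoD-/- in its title and BALB/c Myf5:Myod null in its genotype field, and is called the null-labelled array. Both genotypes were sampled at E18.5, shortly before birth, with no treatment, and both were labelled from 6 µg of total RNA. The sources used here do not give the alleles, the number of embryos behind each RNA sample or the sampled length of esophagus. With 1 array per genotype there was no replicate and no test, and each difference compares these 2 RNA samples only.

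Each myosin motor carries a pair of light chains on the neck of every heavy chain, an essential one, which stiffens the neck, and a regulatory one, which in smooth muscle and nonmuscle cells switches the motor on when it is phosphorylated. Different muscles use different light chain genes. Mylpf and Myl1 encode the regulatory and essential chains of fast skeletal fibers. Myl2 and Myl3 encode those of slow fibers and heart ventricle. Myl4 encodes an essential chain of atrium and embryonic skeletal muscle, and Myl7 the regulatory chain of atrium. Myl9 encodes the regulatory chain of smooth muscle, Myl12b a nearly identical regulatory chain of nonmuscle cells, and Myl6 the essential chain of both. Myl6b encodes an essential chain of nonmuscle cells that slow skeletal muscle also makes, and it was grouped with the smooth and nonmuscle isoforms. The mouse esophagus first forms a smooth muscle coat, much of which is later replaced by striated muscle, and Myf5 and Myod1 encode factors that start the skeletal muscle program.

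Of the 6 striated isoforms, 4 (Mylpf, Myl1, Myl3 and Myl4) read at least 2-fold lower on the null-labelled array and 0 read 2-fold higher. Across all 13315 measured genes, 5.36% passed the same fold in the lower and 6.01% in the higher direction. The 4 lower genes were also at least 4-fold lower, a size that 1.07% of measured genes reached. None of the 3 measured smooth and nonmuscle isoforms was 2-fold apart in either direction. The fast fiber chains Mylpf and Myl1 had the largest ratios, the embryonic chain Myl4 a smaller one, the slow chain Myl3 a bound whose size the low-signal limit sets, and the cardiac regulatory chains Myl2 and Myl7 read dimly on both arrays and no lower on the null-labelled one. The median log2 ratio, null-labelled to wild-type, was -2.26 for the striated isoforms and -0.30 for the smooth and nonmuscle isoforms. For all measured genes it was 0.086. The value of -0.30, over 3 genes, is that of Myl6. The direction of Myl6 is uncertain, because 2 brighter probe sets that list it with other genes read higher, with log2 ratios of 0.53 and 0.75. No setting used those shared probe sets. The striated median ranged from -3.98 with no limit to -0.82 without probe sets that may detect other transcripts, and its difference from the other group from -3.89 to -0.51. Myl3 changed direction in the latter setting, and Myl4 was under 2-fold with the median of its probe sets. In a bulk sample, fewer cells of a type and less RNA per cell cannot be told apart.

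The signals are those of MAS5, the array maker's summary of the probes of a probe set, on a linear scale. Signals under 489, the median of all probe sets of both arrays, were raised to that value before a ratio was taken, and a gene under it on both arrays counted as not measured. A gene under it on 1 array has only a bound, written "at least". The spread between probe sets of the same gene, an SD of 0.56 in log2 ratio over 5455 genes, is the only error these files give, and it leaves out all variation between animals. Signals of different probe sets are not on a common scale, so a signal tells how bright a probe set was against the limit and not how abundant a transcript was. Sums over marker lists add the same probe sets on each array and are led by the brightest of them.

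The start sites of the genes that differed most and of the smooth muscle gene are shown to let the reader see what lies next to them. These are the 250 bases before the start that RefSeq gives for Mylpf, Myl1 and Myl3, all lower on the null-labelled array, and for Myl9, which was not, on the mouse build GRCm38.p6. Each is written 5′ to 3′ on the strand of its gene, and capitals mark every match to an E-box, an M-CAT element, a MEF2 site or a CArG box.
Mylpf, chr7:127211358-127211607, plus strand: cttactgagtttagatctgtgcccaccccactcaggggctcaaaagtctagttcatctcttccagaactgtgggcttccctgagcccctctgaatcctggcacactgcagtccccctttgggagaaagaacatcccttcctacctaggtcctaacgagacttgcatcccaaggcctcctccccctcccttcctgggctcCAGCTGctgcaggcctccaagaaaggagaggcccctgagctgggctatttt
Myl1, chr1:66945057-66945306, minus strand: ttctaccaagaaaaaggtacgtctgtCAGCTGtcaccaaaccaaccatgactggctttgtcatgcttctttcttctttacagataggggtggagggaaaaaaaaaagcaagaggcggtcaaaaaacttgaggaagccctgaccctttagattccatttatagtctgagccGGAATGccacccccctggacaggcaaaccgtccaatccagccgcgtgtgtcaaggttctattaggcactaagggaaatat
Myl3, chr9:110763428-110763677, plus strand: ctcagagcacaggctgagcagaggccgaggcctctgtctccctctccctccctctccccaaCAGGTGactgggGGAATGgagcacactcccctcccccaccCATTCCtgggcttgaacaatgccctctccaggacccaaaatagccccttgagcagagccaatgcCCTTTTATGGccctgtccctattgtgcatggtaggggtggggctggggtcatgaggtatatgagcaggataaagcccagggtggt
Myl9, chr2:156775214-156775463, plus strand: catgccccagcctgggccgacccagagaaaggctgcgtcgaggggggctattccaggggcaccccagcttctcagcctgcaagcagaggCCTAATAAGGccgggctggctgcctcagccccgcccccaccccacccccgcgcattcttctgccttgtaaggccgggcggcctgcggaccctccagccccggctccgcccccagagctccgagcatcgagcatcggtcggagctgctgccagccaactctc
The start used for Mylpf lies 2760 bases inside the RefSeq gene record and that for Myl1 2876 bases inside, so other starts of these genes are not shown. That for Myl4 lies 4646 bases inside, and 1 of the 2 for Myl2 465 bases inside. Which starts the esophagus uses is not known here. E-boxes bind the MyoD family, M-CAT elements bind TEAD factors, and CArG boxes bind serum response factor. The E-box was searched as CANNTG and in its CAGCTG form, which is part of the first, and M-CAT as CATTCC, each on both strands. Mylpf and Myl1 each hold 1 CAGCTG, from base -51 to -46 and from base -224 to -219 before the start, and the sequence CAGCTG occurs in 13% of the 32851 RefSeq windows of this length. The Myl3 window holds 1 E-box of another form, 2 M-CAT matches and 1 CArG box, and the Myl9 window holds 1 CArG box and 0 E-boxes. CArG boxes occur in 1.47% of all windows and M-CAT matches in 12.6%. RefSeq has 12 windows for the 10 genes. At least 1 E-box of the general form lies in 6 of 7 striated and 2 of 5 smooth and nonmuscle windows, against 66.2% of all windows. CAGCTG lies in 3 and 0 of them, M-CAT in 3 and 0, the CArG box in 2 and 2. No MEF2 site was matched in the 12 windows, against 2.92% of all windows. The Myl2 windows, of a gene that did not read lower, also include 1 CAGCTG, and the 1 Myl4 window, which may not be the start used in muscle, holds no match to these motifs. A match, or none, describes the letters of these windows only.

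**Figure D1:**
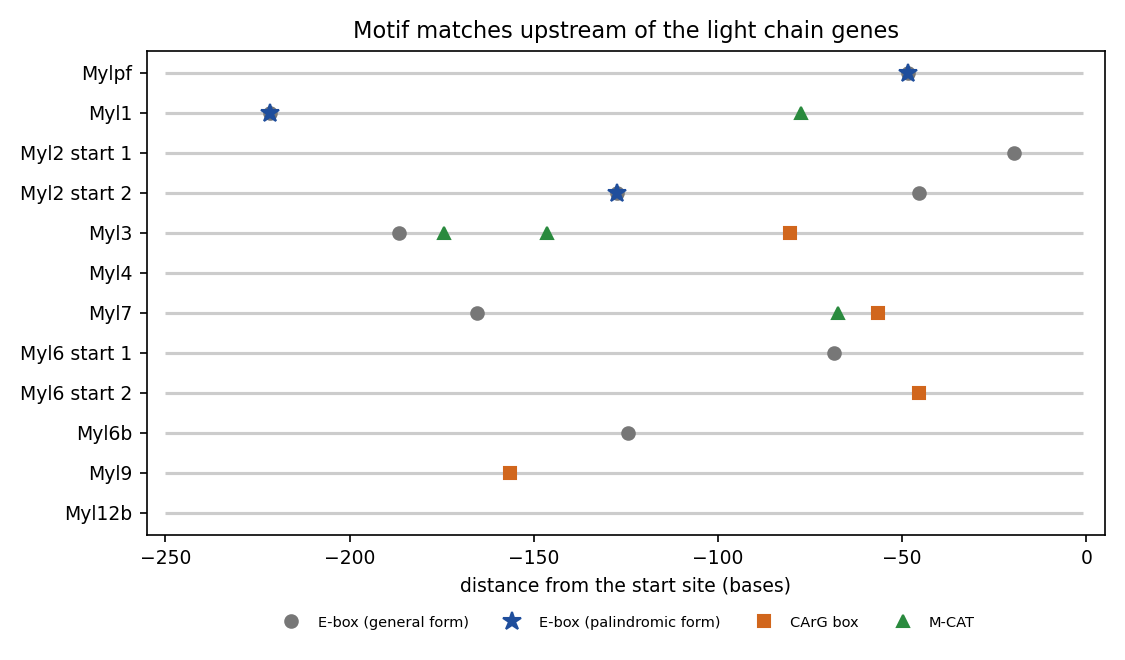
Positions of motif matches in the 250 bases before each RefSeq start of the 10 light chain genes, with distance from the start site in bases on the x axis and 1 line per window. Stars mark the palindromic E-box form, circles the general form, squares CArG boxes and triangles M-CAT elements. The palindromic form appears upstream of Mylpf, Myl1 and 1 of the 2 Myl2 starts, and the Myl4 and Myl12b windows hold no match.

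The targeted genes and the tissue were checked once. Myf5 read 4072 on the wild-type array against 496 on the other, while the brighter Myod1 probe set read 2001 and 1698. The sources used here do not place the probes against the deleted sequence, so Myod1 checks neither the label nor the loss. All 6 squamous epithelium markers were measured, with summed signals of 298925 and 383903 (wild-type array first), led by the keratin gene Krt4 at 173385 and 259124. A second bright Krt4 probe set read lower, 84832.5 and 71386.2 (log2 ratio -0.25). The direction of Krt4, and of the sum it leads, is therefore uncertain. Of the other markers, Trp63 and Sox2 read higher and Krt5 and Krt13 lower, all within 2-fold, and Krt14 was 2.46-fold lower. Further probe sets had ratios of 0.23 and -0.11 for Krt13 and -0.16 for Trp63. Bounds were 0.24 for another Trp63 probe set and -1.89 for another of Krt14. All 6 smooth muscle markers were measured too, with sums of 186635 and 299329, led by smooth muscle alpha-actin Acta2 at 131127 and 242976. Cnn1 and Tagln read lower, with log2 ratios of -0.76 and -0.47. Lmod1 (419 and 1307), with a bound of 1.42, was the only one 2-fold apart, where 6.01% of all measured genes were 2-fold higher. It passed the limit only through the null-labelled array, so it could only read higher. All 8 skeletal muscle markers were at least 2-fold lower, 4 of them as bounds, where 5.36% of all measured genes were. Their summed signals were 168573 and 8517. Of their further measured probe sets, 1 of Tnni2 had a log2 ratio of -3.53 and a dim 1 of Ckm a bound of 0.25. Low signals differed between the arrays as a whole: the median probe set read 393 on the wild-type array against 581 on the other.

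The fast fiber pair was bright on the wild-type array and at or near the low-signal limit on the other. Mylpf (chromosome 7, 127208848 to 127214288 in GRCm38.p6) read 37979 on the wild-type array against 614 on the other. Its log2 ratio was -5.95, a 61.8-fold lower signal and the fifth lowest (rank 5) of the 10346 genes that lay above the limit on both arrays. Myl1 (chromosome 1, 66924295 to 66947932) read 28179 and 383. The second value lies under the limit, so the ratio is a bound of -5.85, at least 57.6-fold lower. Each gene had 1 probe set, and each ratio was over 10 times the spread between probe sets of a gene (10.7 and 10.5 times). With low signals raised to the limit, they were the 2 light chains at least 16-fold lower, a size that 0.188% of all measured genes reached; Myl3, a bound, may also be that much lower. The regulatory and the essential chain of the fast motor therefore read low side by side. Outside the family, and leaving out genes with only a bound, the genes nearest to Mylpf in ratio were skeletal alpha-actin Acta1 (log2 ratio -6.22, from 60683 to 816) and the M-band gene Myom2 (-6.35, from 74995 to 922), 0.27 and 0.40 away over 1 contrast of 2 arrays.

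**Figure D2:**
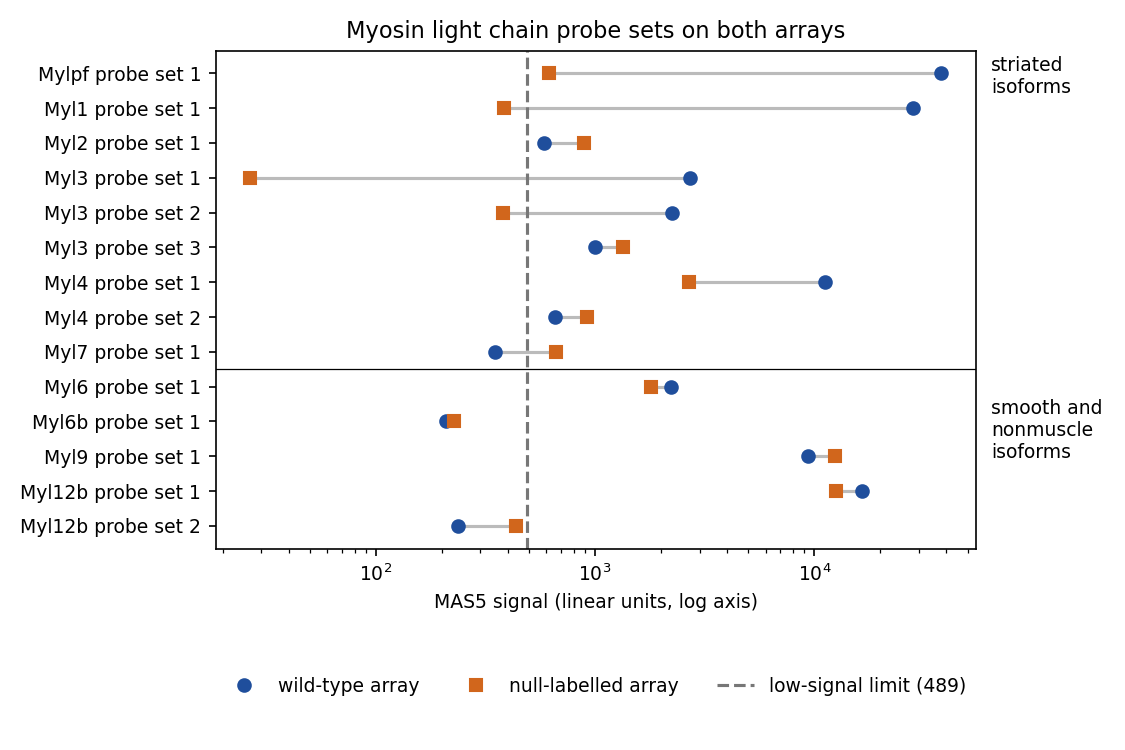
MAS5 signal of each of the 14 light chain probe sets on the wild-type array (circles) and the null-labelled array (squares), on a log axis, with the low-signal limit of 489 dashed. Mylpf and Myl1 read 37979 and 28179 on the wild-type array against 614 and 383, the probe sets of Myl3 and Myl4 disagree, and Myl6, Myl9 and Myl12b (probe set 1) stay close together.

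In the slow and ventricular pair, 2 of 3 Myl3 probe sets read lower, while Myl2 was too close to the limit to record a large loss. Myl3 (chromosome 9, 110763678 to 110769802), the essential chain, had 3 probe sets. The brightest read 2714 on the wild-type array against 26.7 on the other, at least 5.55-fold lower, and the second read 2239 and 380, at least 4.58-fold lower. The third read 1001 and 1343, a log2 ratio of 0.42. The first pair share 1 source sequence, and their IDs end in _s_at and _x_at, which the array maker gives to probe sets that may also detect other transcripts. The third was designed from another sequence and has no such ending. The loss of Myl3 signal was seen by 2 of its 3 probe sets, and leaving out probe sets with those endings turned the Myl3 value from -2.47 to 0.42. Myl2 (chromosome 5, 122092724 to 122113473), the regulatory chain of the same motor, read 583 and 890 at its 1 probe set, a log2 ratio of 0.61. Its wild-type signal was already close to the limit. Of the 3687 probe sets within 0.25 of it in mean log2 signal, 71.7% read higher on the null-labelled array, with a median log2 ratio of 0.44. The genes nearest to Myl2 in ratio, Ccm2l and Taf7, both had a log2 ratio of 0.61 and read 523 and 819 on the wild-type array.

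In the atrial and embryonic pair, the brighter Myl4 probe set read lower, while Myl7 lay under the limit on the wild-type array. Myl4 (chromosome 11, 104546017 to 104587215), the essential chain, read 11218 on the wild-type array against 2695 on the other at its brighter probe set. This is a log2 ratio of -2.06, 4.16-fold lower and rank 83 from the lowest of 10346 genes. Unlike Mylpf and Myl1, Myl4 still read well above the limit on the null-labelled array. Its second probe set read 659 and 921, a log2 ratio of 0.48, where 3557 probe sets of like mean signal had a median of 0.40. With the median of both probe sets the Myl4 value was -0.79, under 2-fold. The genes nearest to Myl4 in ratio were Ptges3l and Krt23, both at -2.06. Myl7 (chromosome 11, 5896637 to 5898782), the atrial regulatory chain, read 348 and 666. The first value lies under the limit, so its log2 ratio is a bound of 0.45, at least 1.36-fold higher. As deposited, the ratio was 0.94, and 4168 probe sets of like mean signal had a median of 0.61 with 75% reading higher. Since Myl7 passed the limit only through the null-labelled array and Myl2 read just above it on the wild-type one, a loss of either could hardly be recorded here.

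Heart tissue makes Myl2, Myl3, Myl4 and Myl7, so markers of cardiac muscle are given beside them. Of 10 cardiac markers 8 were measured, 6 of them as bounds, 3 at least 2-fold higher and 0 lower, where 6.01% and 5.36% of all measured genes passed. The 3 were Ryr2 (435 and 1210), Nkx2-5 (630 and 1296) and Tbx5 (113 and 1558), all dim on the wild-type array. Nppb (561 and 406) and Tbx20 (810 and 362) read lower, with bounds of -0.20 and -0.73. A further Tbx20 probe set had a bound of 0.16. Of the 8 measured, 6 read higher and 2 lower. Ryr2, Tbx5, Myh6 and Gata4 passed the limit only through the null-labelled array, so they could only read higher. Nppb and the brighter Tbx20 probe set passed it only through the wild-type array, so they could only read lower. Among probe sets with a mean signal like that of Myl2 and Myl7, 21.7% and 32.5% read at least 2-fold higher as deposited. The summed signal was 11043 on the wild-type array against 18968 on the other, of which Hand2, a factor also made outside the heart, gave 7501 and 12186. The natriuretic peptide gene Nppa (380 and 366) and the cardiac troponin gene Tnni3 (39.4 and 31.3) lay under the limit on both arrays, and the cardiac heavy chain Myh6 read 297 and 849. The part of cardiac RNA in the Myl2 and Myl7 readings was not tested.

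**Figure D3:**
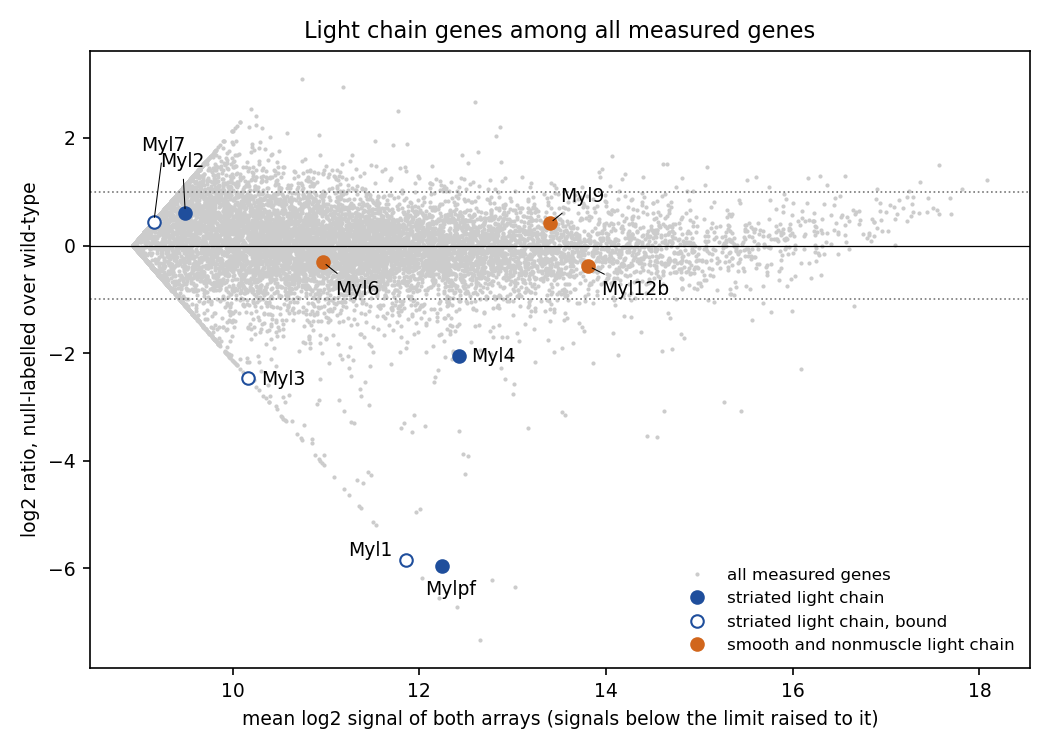
Null-labelled to wild-type log2 ratio against mean log2 signal for all 13315 measured genes (grey) and the 9 measured light chain genes, with open circles for bounds and dotted lines at 2-fold. Mylpf and Myl1 lie near -6 at the edge of the cloud, Myl3 and Myl4 near -2, and the other 5 light chains inside it.

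The smooth muscle and nonmuscle isoforms kept signals of the same order on both arrays. Myl9 (chromosome 2, 156775408 to 156781657) read 9343 on the wild-type array against 12441 on the other, a log2 ratio of 0.41. Myl12b (chromosome 17, 70973963 to 70990516) read 16419 and 12589, a log2 ratio of -0.38, and its second probe set lay under the limit on both arrays (238 and 438). Myl6 (chromosome 10, 128490859 to 128493886) read 2222 and 1799 at the only probe set that names it alone, a log2 ratio of -0.30. All 3 ratios are within the SD of 0.56 between probe sets of a gene. Myl9 had the sign of a higher reading and the other 2 that of a lower one. These signs held in all 8 alternatives for single genes, but not all of these could move them. The other limits, the median of probe sets and leaving out _x_at and _s_at probe sets left these 3 values unchanged. Only median centring, quantile normalization, loess and the pseudocount moved them. A further 2 probe sets, which list Myl6 with 2 other gene symbols, read 50995 and 73809 and 85745 and 144125, 1.45-fold and 1.68-fold higher. Their sign is opposite to that of the Myl6 probe set, and which of the listed genes they detect cannot be told apart, so the direction of Myl6 is uncertain. Myl6b (chromosome 10, 128494157 to 128498685) read 209 and 228, under the limit on both arrays, and was not measured.

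The probe sets of Myl3 and of Myl4 disagreed. The log2 ratios had an SD of 1.60 over the 3 probe sets of Myl3 and 1.80 over the 2 of Myl4, against the pooled 0.56. Of 12 measured light chain probe sets, 5 were at least 2-fold lower and 0 were 2-fold higher, where 4.94% of all measured probe sets were lower and 5.94% higher. All 5 belonged to striated genes and had wild-type signals of 2239 or more. The other 4 striated probe sets read 348 to 1001 on the wild-type array and all read higher on the null-labelled one. The sources used here do not give the position of these probe sets along their transcripts.

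**Figure D4:**
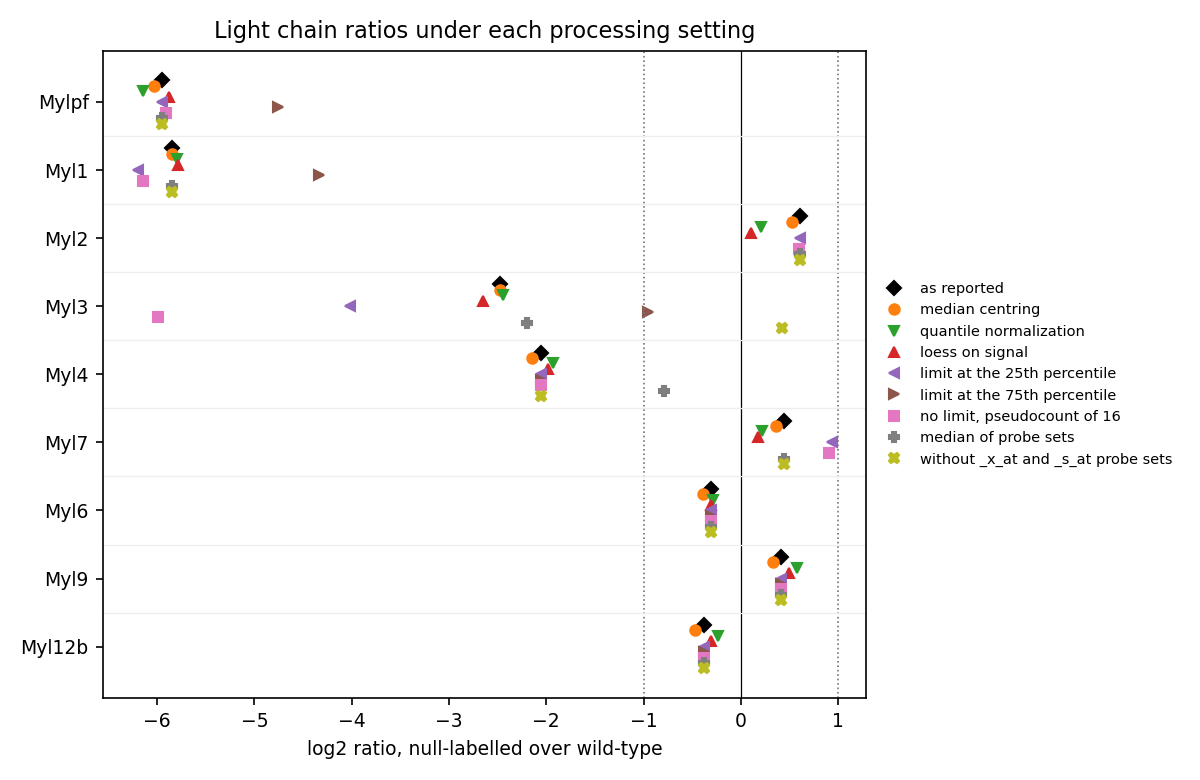
Log2 ratio of each measured light chain gene as reported (diamonds) and under 8 other processing settings, with dotted lines at 2-fold. Mylpf and Myl1 stay below -4 in all of them, Myl3 runs from -5.997 to 0.42, Myl4 from -2.14 to -0.79, and Myl6, Myl9 and Myl12b lie between -0.47 and 0.57.

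Light chains work only on heavy chains, so the heavy chain genes were set beside them. Of 8 striated heavy chain genes on the array 7 were measured, with a median log2 ratio of -3.31. Of these, 4 were at least 2-fold lower and 0 higher, against 5.36% and 6.01% of all measured genes. Myh3, the embryonic heavy chain, read 81678 and 507 (log2 ratio -7.33). Myh8, the perinatal one, read 35506 and 361 (a bound of -6.18), and the fast adult chain Myh1 read 9700 and 208 (a bound of -4.31). The further Myh1 probe sets had bounds of -4.16 and 0.085. Myh7, the slow chain that pairs with Myl2 and Myl3, read 11512 and 1162, 9.91-fold lower. The remaining 3 had bounds from -0.15 to 0.79 (Myh7b, Myh4 and Myh6), all with wild-type signals of 541 or less. With wild-type signals this close to the limit, or under it, no large loss could be recorded for these genes. As deposited, Myh7b read 541 and 107.

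The 4 smooth and nonmuscle heavy chains were all measured, with a median log2 ratio of 0.39. Of these, 1 was at least 2-fold higher and 0 lower, against 6.01% and 5.36% of all measured genes. Myh11, the smooth muscle heavy chain, read 16411 and 27810 (log2 ratio 0.76). Myh9, a nonmuscle heavy chain, read 18573 and 44514 (1.26), while Myh10 and Myh14 had log2 ratios of -0.24 and 0.015. The further Myh9 probe sets had ratios of 1.49, 0.89, 0.52 and 0.32, so not all of them reached 2-fold. A further Myh11 probe set had a ratio of 0.85 and a further Myh10 probe set a bound of 0.28. Of the other light chain genes looked for, Myl10 was under the limit on both arrays. Myl12a, the close copy of Myl12b, read 68359 and 40418 (log2 ratio -0.76) at its brighter probe set and had a ratio of 0.16 at its second.

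The enzymes that phosphorylate and dephosphorylate the regulatory chain were counted as a list of 18, of which 14 were named on the array and 11 measured. At least 2-fold higher were 4 and lower 1, against 6.01% and 5.36% of all measured genes, with a median log2 ratio of 0.58. Mylk, the kinase of the smooth muscle regulatory chain, read 115515 and 326483 (log2 ratio 1.499), and its other probe sets had ratios of 0.084 and 1.86. The kinase genes Cit and Dapk1 had ratios of 1.29 and 1.23 and the phosphatase subunit gene Ppp1r12c (185 and 1052) a bound of 1.10. This Ppp1r12c probe set passed the limit only through the null-labelled array, so it could only read higher. The ID of the Cit probe set ends in _x_at. A further Cit probe set had a ratio of -0.41, and a further Ppp1r12c probe set a bound of -0.29. Mylk4, a kinase of the same family as Mylk, read 2403 and 89.6, at least 4.91-fold lower. Ppp1r14a, an inhibitor of the phosphatase in smooth muscle, had the second lowest ratio, -0.43. Mylk2, the skeletal muscle kinase, and Mylk3, the cardiac one, lay under the limit on both arrays. The regulatory chains these enzymes act on in smooth muscle and nonmuscle cells, Myl9 and Myl12b, stayed within 2-fold.

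**Figure D5:**
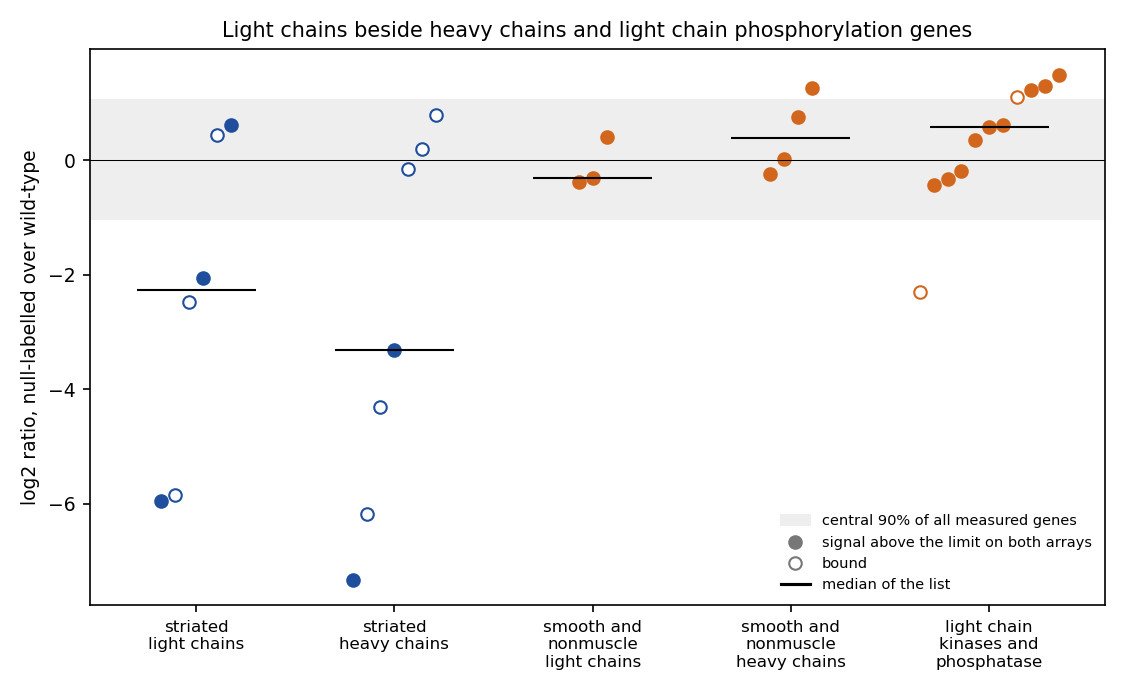
Null-labelled to wild-type log2 ratio for measured genes of 5 lists, 1 point per gene, with open circles for bounds, bars at the median and a grey band for the central 90% of all measured genes (-1.03 to 1.06). Striated light and heavy chains have medians of -2.26 and -3.31, and the medians of the other 3 lists lie between -0.30 and 0.58.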

How the data were processed

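RNA of 2 samples was measured on Affymetrix arrays, 1 per genotype. The authors deposited signal intensities on a linear scale, made with MAS5 per the submitters' processing notes; the sources used here give neither version nor settings. Both arrays have a mean intensity of 1499.5 after trimming 2% of probe sets at each end. Of 45101 probe sets, 64 controls were left out, 34945 had 1 gene symbol, 932 several and 9160 none. The symbols of all 10 members matched RefSeq (GRCm38.p6) by Entrez ID. A gene took its probe set with the highest mean signal. The limit on low signals was the 50th percentile, which stands in for detection calls and measures no background. Genes were counted at 2-fold. The number of arrays limits the precision.

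All 10 members, all measured heavy chains, genes of the phosphorylation list at least 2-fold apart or with its 2 lowest or highest ratios, and the 2 genes nearest in ratio to each striated member above the limit on both arrays were named. Members, lists and limit were chosen with earlier results of these data known. The comparison with probe sets of like signal (within 0.25 in mean log2 signal) and the choice of cardiac markers to print were made after the values were seen. Alternatives were median centring, quantile normalization, loess (span 0.3), the median of probe sets, a limit set at the 25th percentile or the 75th, a pseudocount of 16 in place of a limit, leaving out _x_at and _s_at probe sets, a 4-fold threshold, and Myl6b among the striated isoforms. The ratio and counting steps were tested on simulated data. The simulated shifts were placed in bright genes only, so that test did not cover shifted genes near the limit. Python 3.11.15, numpy 2.4.6, pandas 2.3.3, statsmodels 0.14.6 and matplotlib 3.10.9 were used.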

Additional observations from a re-analysis of the deposited data

How the results depend on the processing

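The count of striated isoforms past the fold in the lower direction was 3 or 4 in all 10 alternatives. That of smooth and nonmuscle isoforms in the higher direction was 0 in all 10. The fold was 2 except in the 4-fold setting. Moving Myl6b to the striated isoforms could not change either count, because Myl6b was not measured. The median log2 ratio of the striated isoforms kept its sign but moved with the limit and the probe sets used. A limit at the 25th percentile gave -3.04 and one at the 75th, where Myl2 and Myl7 were not measured, gave -3.20. It was -3.98 with no limit and a pseudocount of 16. It was -1.49 with the median of probe sets and -0.82 without _x_at and _s_at probe sets. Its difference from the median of the smooth and nonmuscle isoforms, -1.96 as reported, was -2.95, -2.89, -3.89, -1.19 and -0.51 in the same settings. Myl3 was 0.42 without _x_at and _s_at probe sets, -0.96 under the 75th percentile limit and -5.997 with no limit, and Myl4 was -0.79 with the median of probe sets. Of 70 values of single genes, 63 stayed within the spread between probe sets, some of them unchanged by the setting. A further 6 moved by more, and 1 changed direction. The counts of all genes at least 2-fold lower and higher were 714 and 800 as reported, 1232 and 2742 under the 25th percentile limit, 383 and 148 under the 75th, 1704 and 3548 with no limit, 985 and 360 with loess, and 804 and 546 with quantile normalization. With median centring they were 817 and 610, and with the 4-fold threshold 142 and 21. Signals under the limit give bounds only, which sets the size of the Myl1 and Myl3 ratios. No paired analysis was possible because each genotype has 1 array.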
